A study of Mus musculus with 3 samples.

Results

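TEa cells are CD4+ T cells from a T cell receptor (TCR) transgenic mouse, so that all of them are meant to carry a single receptor, and the cells described here were those that the deposited table of CD4+ cells marked as TEa. The mark was given to 280 of 10371 CD4+ cells, out of 21204 CD4+ and CD8+ cells sequenced in all, and the other 10091 CD4+ cells are called unmarked. TEa cells were compared with unmarked cells of the same mice, and TEa cells of mice given different doses of cyclosporin (CSA) were compared with each other.

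The TEa receptor binds a peptide of the alpha chain of the I-E class II molecule presented by I-Ab, so it sees a peptide made by the recipient and not by the donor, shown on a class II molecule that both carry. T cells with this indirect specificity are used to follow a known alloreactive clone inside a polyclonal graft. CSA binds cyclophilin and inhibits the phosphatase calcineurin, which keeps NFAT out of the nucleus and blunts the genes that TCR signalling induces.

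The recipients were B6D2F1 mice, and every group received allogeneic bone marrow transplantation from B6 donors together with B6 T cells and a small number of TEa T cells. TEa donors were Rag1-/-, H-2b and CD45.1+, whereas the B6 donors were CD45.2+. Each of 3 groups had 6 mice, treated every day between days 0 and 6 with saline, with 5 mg/kg CSA or with 50 mg/kg CSA, and spleens were harvested on day 7. Spleens were pooled in pairs, which gave 3 hashtagged pools in each group. Because the pools of a group shared a single droplet capture, effects of treatment and of capture cannot be told apart. A single receptor also means that TEa cells stand for 1 clone, not for alloreactive CD4+ cells at large. Across the captures, 218 cell barcodes were found in more than 1.

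The receptor itself was the same in every TEa cell. The mark coincided with 1 nucleotide clonotype, the pair of complementarity-determining region 3 (CDR3) sequences, in all 280 cells, and 278 cells also had the same gene annotation, the other 2 lacking only the alpha constant segment. The CDR3 sequences are printed because they are what identifies a TEa cell, written 5' to 3' as deposited, with capitals for the bases that match neither the germline V nor the germline J segment of the GENCODE M21 transcripts.
TEa alpha (Trav14d-3-dv8, Traj13): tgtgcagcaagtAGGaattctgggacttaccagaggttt
TEa beta (Trbv19, Trbj2-7): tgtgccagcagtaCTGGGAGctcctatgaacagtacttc
Both runs were 39 bases long. The alpha CDR3 held 12 bases of its V segment and 24 of its J segment with 3 bases between them, and the beta CDR3 held 13 and 19 with 7 between them. The largest of the 6842 clonotypes among unmarked cells held 27 cells, so no other receptor came near the 280 cells of this one.

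No unmarked CD4+ cell held the TEa pair. The beta CDR3 alone was found in 23 unmarked cells (0.228%, exact 95% interval 0.145 to 0.342%), of which 18 had no alpha chain, and all 18 had the identical nucleotide run. Of the 10833 CD8+ cells, 9003 had a clonotype, and 0 held the pair and 2 the beta chain. UMIs (unique molecular identifiers, which count captured RNA molecules) of the V segments followed the same split. Trav14d-3-dv8 took 4819 of 4873 alpha V segment UMIs in TEa cells (98.9%), against 342 of 5234 (6.53%) in unmarked cells matched to them by pool and cluster. Trbv19 took 4946 of 5162 beta V segment UMIs (95.8%), against 1378 of 12505 (11.0%). These values restate how the cells were chosen and were given no test.

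CD45.1, the allelic form of the CD45 phosphatase that the TEa donors carried and the B6 donors did not, was read by an antibody that the mark did not use. Median antibody UMIs per TEa cell in pools 1 to 3 were 94, 83 and 85 with saline, 92, 82 and 88 with CSA 5 mg/kg, and 64, 51 and 63 with CSA 50 mg/kg. Medians of unmarked CD4+ cells in the same pools were 5, 5 and 7, then 6, 7 and 6, then 1, 1 and 2. TEa medians were above those of unmarked cells in every pool, and the lowest TEa cell of all held 23. CD8+ cells had medians of 8 to 10 with saline and CSA 5 mg/kg and of 2 with CSA 50 mg/kg, so levels in all cells were lower in the third capture. CD4 antibody medians of TEa cells (329.5 to 567.5 UMIs) lay beside those of unmarked cells (323 to 534), and CD8 antibody medians were 2 to 7.

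**Figure D1:**
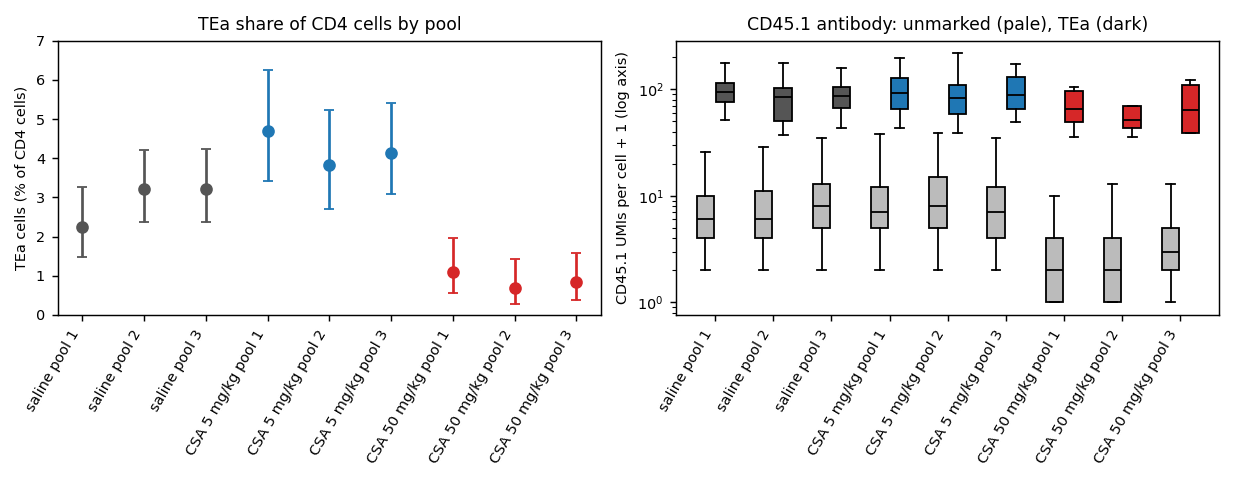
Left, TEa cells as a percent of CD4+ cells in each of the 9 pools by treatment, with exact 95% intervals of the counts. Right, CD45.1 antibody UMIs per cell plus 1 (log axis) in unmarked (pale) and TEa (dark) CD4+ cells of each pool, with boxes for the quartiles and whiskers from the 5th to the 95th percentile; the TEa shares of the CSA 50 mg/kg pools (0.688 to 1.10%) sit below all the others and the CD45.1 medians of TEa cells (51 to 94) above those of unmarked cells (1 to 7).

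Some unmarked cells had the same protein label. An antibody count at or above the 5th percentile of the TEa cells of the same group was found in 304 unmarked cells, 132 of them without any clonotype. Another clonotype was held by 143 of the 304 with both chains and by 18 with 1 chain, so the count alone did not single out TEa cells. A Trbv19 UMI was found in 84 of these 132 cells (63.6%, exact 95% interval 54.8 to 71.8%), against 554 of the other 1975 cells without a clonotype (28.1%, 26.1 to 30.1%). UMIs of both TEa V segments were found in 61 of the 132. With 10 unmarked cells of high CD45.1 that had the beta chain and no alpha chain, these made 71 cells that may have escaped the mark (39 with saline, 29 with CSA 5 mg/kg and 3 with CSA 50 mg/kg), and 12 of them sat among the matched unmarked cells used below.

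TEa cells were a minority of splenic CD4+ cells that was larger at the lower dose of CSA and smaller at the higher dose. With saline, 26 of 1161, 49 of 1528 and 48 of 1492 CD4+ cells of pools 1 to 3 were TEa cells (2.24, 3.21 and 3.22%). With CSA 5 mg/kg these were 43 of 918, 37 of 970 and 50 of 1211 (4.68, 3.81 and 4.13%), and with CSA 50 mg/kg 11 of 999, 7 of 1017 and 9 of 1075 (1.10, 0.688 and 0.837%). The 3 groups did not overlap. Means were 2.89% ± 0.562, 4.21% ± 0.440 and 0.876% ± 0.209 (SD, n = 3 pools each), a difference from saline of 1.32 percentage points at 5 mg/kg and of -2.01 at 50 mg/kg. Each had an exact permutation p of 0.1 (two-sided), the smallest that 3 pools against 3 allow, so neither difference could pass a threshold of 0.05. Counting the 71 cells above as TEa gave 1.30 and -2.83 points. Shares of cells cannot tell a change in TEa cells from a change in the other CD4+ cells of the spleen.

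TEa cells were found in 11 of the 13 deposited CD4+ clusters. None of the 280 were in the naive cluster C9, which held 309 unmarked cells, or in the regulatory cluster C11, which held 104, and a count of 0 of 280 allows a share of up to 1.07% with 3 counts as the floor, or 1.31% as the exact 95% upper limit. With saline, the follicular helper cluster C4 held 33 of 123 TEa cells (26.8%, exact 95% interval 19.2 to 35.6%) and 18.1% of unmarked cells, whereas the Cd226hi effector cluster C0 held 16 of 123 (13.0%) and 25.7%. With CSA 5 mg/kg, C4 held 3 of 130 TEa cells (2.31%) and 6.37% of unmarked cells, and the cycling clusters C3, C5 and C6 held 16.9, 13.1 and 11.5% of TEa cells against 10.7, 6.26 and 6.10% of unmarked cells. With CSA 50 mg/kg, 10 of 27 TEa cells were in the Tcf7hi precursor-like cluster C2 (37.0%, 19.4 to 57.6%), which held 10.1% of unmarked cells, and 0 of 27 were in C0, C4, C6 or C8, which allows up to 11.1% in each by the same floor, or 12.8% as the exact limit.

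Grouped into classes and compared within the 9 pools by exact two-sided sign-flip tests, adjusted over 3 classes, none of the cluster shares differed past the threshold. The cycling clusters C3, C5 and C6 together held 35.2% ± 11.8 of TEa cells and 25.9% ± 5.57 of unmarked cells (SD, n = 9), higher in 7 of 9 pools, with an exact p of 0.0547 and 0.0820 after adjustment. The clusters C0, C4 and C6 held 24.1% ± 22.2 and 32.4% ± 17.7 (n = 9), lower in 8 of 9 pools, with an exact p of 0.0195 and 0.0586 after adjustment. Among cells with a clonotype only, these differences were 7.05 and -5.49 points (exact adjusted p = 0.205 for each). The Cd226lo clusters C1 and C3 held 27.4 and 28.1%. Pool 2 with CSA 50 mg/kg holds 7 TEa cells, and without it the cycling difference was 12.4 points (exact adjusted p = 0.0469) and the C1 and C3 difference changed sign (4.50 points, exact adjusted p = 0.133). Without pool 2 with CSA 5 mg/kg the difference over C0, C4 and C6 was -10.2 points (exact adjusted p = 0.0234).

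**Figure D2:**
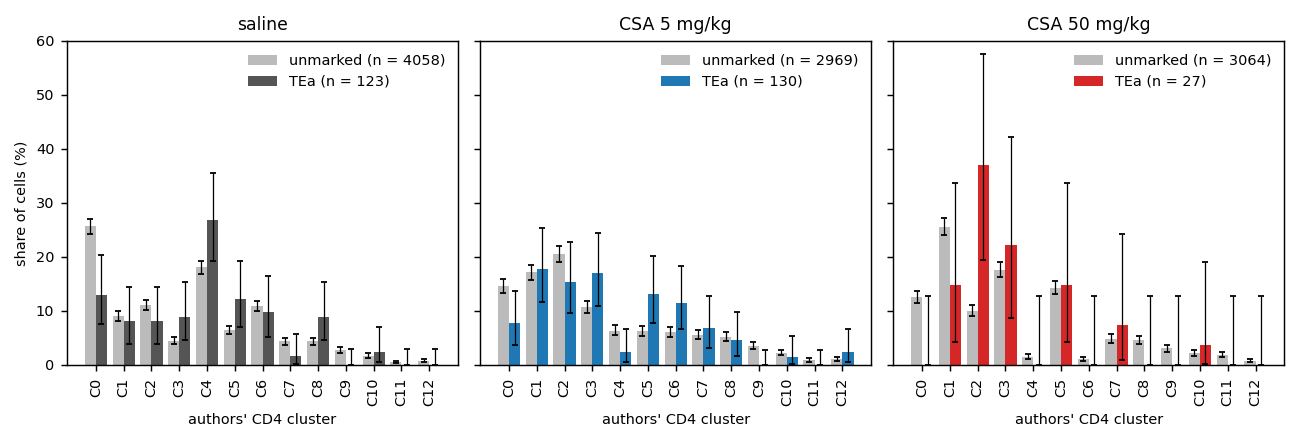
Percent of cells in each CD4+ cluster, C0 to C12, for unmarked (pale) and TEa (dark) cells, in 3 panels for saline, CSA 5 mg/kg and CSA 50 mg/kg, with exact 95% intervals that cover counting error only. TEa bars with saline are tallest at C4 (26.8%) and with CSA 50 mg/kg at C2 (37.0%), and C9 and C11 have no TEa bar in any panel.

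For gene expression, raw UMI counts were summed over the TEa cells of each pool, and 5 unmarked cells per TEa cell were drawn from the same pool and cluster, 1393 cells in all, so that cluster makeup was the same on both sides. Levels are given as CPM, the UMIs of a gene scaled to a common library size after correction by the TMM factors of edgeR. Adjusted p-values come from the quasi-likelihood F-test of edgeR, corrected by the Benjamini-Hochberg method over every gene tested, and genes under 0.05 were called. TEa cells of a group held 530257, 765371 and 229770 UMIs in order of dose, with medians per cell of 3475, 5076 and 7188. Scaled to the UMIs of each pool without TMM factors, CD4 T cell markers summed to 5459 to 6600 CPM in TEa cells and 5004 to 6040 in matched cells. Of 2 CD8 markers Cd8a was at 0 in TEa and in matched cells of every pool. The list summed to 172 UMIs in TEa cells, a median of 115 CPM over pools (20.7 to 153) beside 77.4 (17.3 to 148) in matched cells. B cell markers summed to 15 UMIs in TEa cells (0 to 26.0 CPM), with Cd79a and Ms4a1 at 0, NK markers to 11 (0 to 21.9 CPM), with Ncr1 at 0, gamma-delta T cell markers to 9 (0 to 13.7 CPM), with Tcrg-C1 at 0, and plasma cell markers to 1, with Mzb1 and Sdc1 at 0. In matched cells these lists reached 9.40, 6.82, 4.05 and 298 CPM. Myeloid markers summed to 34 UMIs in TEa cells (0 to 43.8 CPM), erythroid markers to 17 (0 to 36.3 CPM) and dendritic cell markers to 15 (0 to 17.3 CPM). The same lists reached 54.6, 43.2 and 18.4 CPM in matched cells. The part of such cells in the results was not tested. The 3 regulatory markers summed to 0 to 186 CPM in TEa cells and 4.84 to 134 in matched cells.

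Within matched clusters of the 7 pools with at least 10 TEa cells, few genes were called between TEa cells and their neighbours. The TEa sums of these pools held 11 to 50 cells each, so genes that were not called may still differ. Of 6783 genes tested, 80 passed the threshold (1.18%), 28 of them higher (0.413%) and 52 lower (0.767%) in TEa cells, and 31 of the 80 were TCR segments, which restate the receptor. Among the other 6750 genes, 49 passed (0.726%), of which 24 were higher (0.356%) and 25 lower (0.37%) in TEa cells, and 25 of the 49 had the same direction in all 7 pools. The leading genes were Ctse, Ifitm1, Egr1 and Tnf, which were higher, and the chemokine genes Ccl1, Ccl3 and Ccl4, which were lower. The median log2 fold change of all genes tested was 0.01. Genes above 50 CPM are named by rank of fold change or as members of the gene lists. Any other gene named was chosen after its values were seen.

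**Figure D3:**
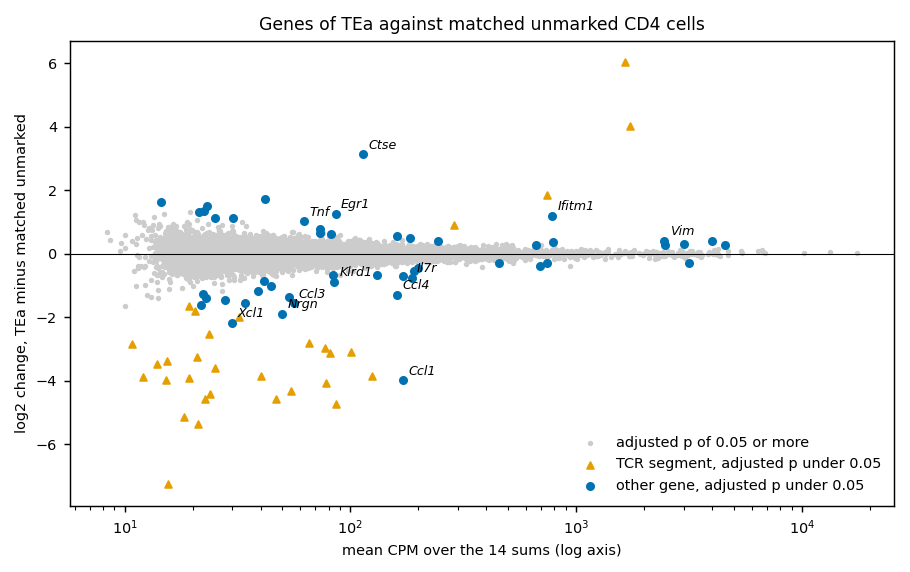
Log2 fold change of TEa against matched unmarked CD4+ cells (7 pools, edgeR) against mean level in CPM (log axis), 1 point per gene tested, with genes past the threshold coloured and TCR segments shown apart. Ctse (log2 fold change 3.14) and Ccl1 (-3.98) lie farthest from 0 among the labelled genes.

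Ctse, which encodes the aspartic protease cathepsin E, had the largest rise. TEa cells held 220, 239 and 187 CPM in saline pools 1 to 3, 236, 223 and 217 with CSA 5 mg/kg and 92.9 in the CSA 50 mg/kg pool, and matched cells held 31.3, 20.8 and 28.8, then 24.2, 23.8 and 19.5, then 22.4. Every TEa value was above every matched value. The means were 202 ± 51.2 and 24.4 ± 4.26 CPM (SD, n = 7 pools), a log2 fold change of 3.14 ± 0.16 (SE) with an edgeR adjusted p of 2.98e-22. In single cells, a Ctse UMI was found in 175 of 280 TEa cells (62.5%) and in 135 of 1393 matched cells (9.69%), at median depths of 4423 and 4152 UMIs. In the 71 unmarked cells set apart above, 42 held one (59.2%, median depth 4386). The call held in all 24 alternatives tried.

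Ctse lies at chr1:131638306-131675505 of GRCm38, 6.46 Mb from Ptprc, the gene of the CD45 forms (chr1:138062861-138175708), at which TEa and B6 donors differ. Ptprc itself was not called (log2 fold change -0.11, edgeR adjusted p = 0.654). On chromosome 1, 7 of the 387 genes tested passed (1.81%), beside 0.726% over all genes without TCR segments. This was the largest share of any chromosome, followed by chromosomes 11 (8 of 574, 1.39%) and 6 (4 of 319, 1.25%), and the shares were not tested. In order along the chromosome, Wdfy1, Tmem37, Ctse, Btg2 and Ube2t lie 58.4, 18.0, 6.46, 4.04 and 3.15 Mb before Ptprc, and Tpr and Xcl1 12.3 and 26.8 Mb after it. Wdfy1, Tmem37 and Ctse were higher in TEa cells and the other 4 lower, and Wdfy1 (1.63), Tmem37 (1.51), Ube2t (-1.40) and Xcl1 (-2.17), all under 50 CPM, were picked after their values were seen. Whether donor background bears on these genes was not tested.

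Ifitm1, an interferon-induced transmembrane gene, was higher in TEa cells of each pool that expressed it. TEa cells held 700, 1235 and 377 CPM with saline and 1630, 1117 and 2596 with CSA 5 mg/kg, and matched cells 207, 337 and 295, then 869, 506 and 1091. In the CSA 50 mg/kg pool both were at 0. The log2 fold change was 1.20 ± 0.09 (SE, edgeR adjusted p = 2.04e-14).

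Egr1 and Tnf, an immediate early transcription factor and a cytokine that TCR signalling induces, also rose. Egr1 stood at 190, 72.6 and 110 CPM in TEa cells with saline, 251, 70.8 and 115 with CSA 5 mg/kg and 31.0 with CSA 50 mg/kg, beside 89.8, 50.6 and 57.7, then 45.6, 30.6 and 49.4, then 39.2 in matched cells. TEa cells were higher in 6 of 7 pools, the CSA 50 mg/kg pool being the exception (log2 fold change 1.25 ± 0.18, edgeR adjusted p = 1.83e-06). Tnf stood at 50.0, 98.3 and 55.1, then 158, 92.6 and 122, then 10.3 CPM in TEa cells, and at 31.3, 54.3 and 50.9, then 47.5, 29.5 and 62.6, then 11.2 in matched cells (log2 fold change 1.03 ± 0.18, edgeR adjusted p = 1.58e-04). It had the same exception. With saline pools alone neither passed (log2 fold changes of 0.84 for Egr1 and 0.55 for Tnf).

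Vim and S100a6 rose by less. Vim, the intermediate filament protein vimentin, held 1989, 2286 and 2141 CPM with saline, 2545, 3411 and 2718 with CSA 5 mg/kg and 4521 with CSA 50 mg/kg in TEa cells, and 1510, 1393 and 1806, then 2419, 2163 and 2180, then 3276 in matched cells. It was higher in 7 of 7 pools (log2 fold change 0.41 ± 0.06, edgeR adjusted p = 5.8e-07), but over the 3 CSA 50 mg/kg pools alone the value was -0.02. S100a6, a calcium-binding protein, had the same fold change (0.41, edgeR adjusted p = 7.15e-07) in 6 of 7 pools. Lgals1 (0.26), S100a10 (0.27), Crip1 (0.32) and the proliferation gene Mki67 (0.28) also rose and were higher in 7 of 7 pools. The rule also named AA467197 (0.78), Ssbp3 (0.65), Slfn5 (0.62), 1500009L16Rik (0.56) and Cmtm7 (0.50). Ssbp3 kept its call in 6 of 24 alternatives, Slfn5 in 10 of 23 and AA467197 in 13 of 24. Leaving out any pool but saline pool 2 ended the call of Ssbp3 (0.55 to 0.70), and each saline pool and CSA 5 mg/kg pools 1 and 2 ended that of Slfn5 (0.50 to 0.64). AA467197 was lost without saline pool 2 (0.50) or 3 (0.80) or CSA 5 mg/kg pool 2 (0.72) or 3 (0.80), 1500009L16Rik without saline pool 3 (0.45), and Cmtm7 without CSA 5 mg/kg pool 3 (0.51) or CSA 50 mg/kg pool 1 (0.36).

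The chemokine gene Ccl1 fell most among the genes above 50 CPM, followed by Ccl3, Gm42031 and Ccl4. Ccl1, the ligand of CCR8, held 20.0, 17.1 and 8.48 CPM with saline and 4.92, 43.6 and 54.2 with CSA 5 mg/kg in TEa cells, and 27.2, 114 and 78.8, then 22.3, 986 and 1026 in matched cells, with 0 in both at CSA 50 mg/kg. TEa cells were lower in each of the 6 pools that expressed it, and 2 pools with CSA 5 mg/kg gave the matched cells their high values (log2 fold change -3.98 ± 0.20, edgeR adjusted p = 5.53e-22). A Ccl1 UMI was found in 5.00% of TEa cells and 8.47% of matched cells, so a small share of cells carried the level on both sides.

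Ccl3 and Ccl4, chemokines of activated T cells, were lower in 7 of 7 pools. Ccl4 held 30.0, 29.9 and 38.1 CPM with saline, 34.5, 185 and 312 with CSA 5 mg/kg and 10.3 with CSA 50 mg/kg in TEa cells, against 85.6, 78.7 and 103, then 125, 264 and 809, then 140 (log2 fold change -1.29 ± 0.14, edgeR adjusted p = 1.86e-09). Ccl3 fell by 1.55 ± 0.22 on the log2 scale (edgeR adjusted p = 1.61e-06), from 29.2, 33.5 and 37.5 CPM in matched cells to 9.99, 17.1 and 21.2 in TEa cells with saline. The genes Xcl1 (-2.17, edgeR adjusted p = 6.14e-05), which encodes lymphotactin, Csf2 (-1.54, 0.0038), which encodes GM-CSF, and Nrgn (-1.89, 5.61e-07) also fell and were picked after their values were seen. An Xcl1 UMI was found in 5.36% of TEa cells and 5.53% of matched cells, so the share of cells with Xcl1 was nearly the same. For Nrgn these shares were 9.29 and 15.8%.

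The receptor genes Il7r and Cd96 were lower as well. Il7r, the interleukin-7 receptor alpha chain, held 50.0, 154 and 119 CPM with saline, 256, 229 and 129 with CSA 5 mg/kg and 20.6 with CSA 50 mg/kg in TEa cells, against 226, 218 and 330, then 267, 264 and 274, then 78.5 (log2 fold change -0.75 ± 0.14, edgeR adjusted p = 1.99e-04). Cd96, a receptor for CD155, held 70.0, 68.4 and 89.0, then 54.2, 59.9 and 61.0, then 51.6 CPM against 77.3, 95.9 and 130, then 124, 108 and 99.5, then 81.3 (log2 fold change -0.68 ± 0.16, edgeR adjusted p = 0.00878). Both were lower in 7 of 7 pools, and Cd96 lost its call without CSA 5 mg/kg pool 1 (-0.60).

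The other falls named by the rule were Gm42031 (-1.36), Klrd1 (-0.89), which encodes the NK receptor chain CD94, the antiproliferative gene Btg2 (-0.71), Ccnd2 (-0.69), which encodes cyclin D2, and Tnfrsf4 (-0.55), which encodes the costimulatory receptor OX40. Tnfrsf4 kept its call in 17 of 24 alternatives and lost it without saline pool 1 (-0.54), saline pool 2 (-0.50) or CSA 5 mg/kg pool 3 (-0.45). H2-K1 (-0.28) and H2-Q7 (-0.30), class I genes of the donor's H-2, fell by little. Bcl2l11 (-1.17), the proapoptotic BIM, also fell and was picked after its values were seen.

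**Figure D4:**
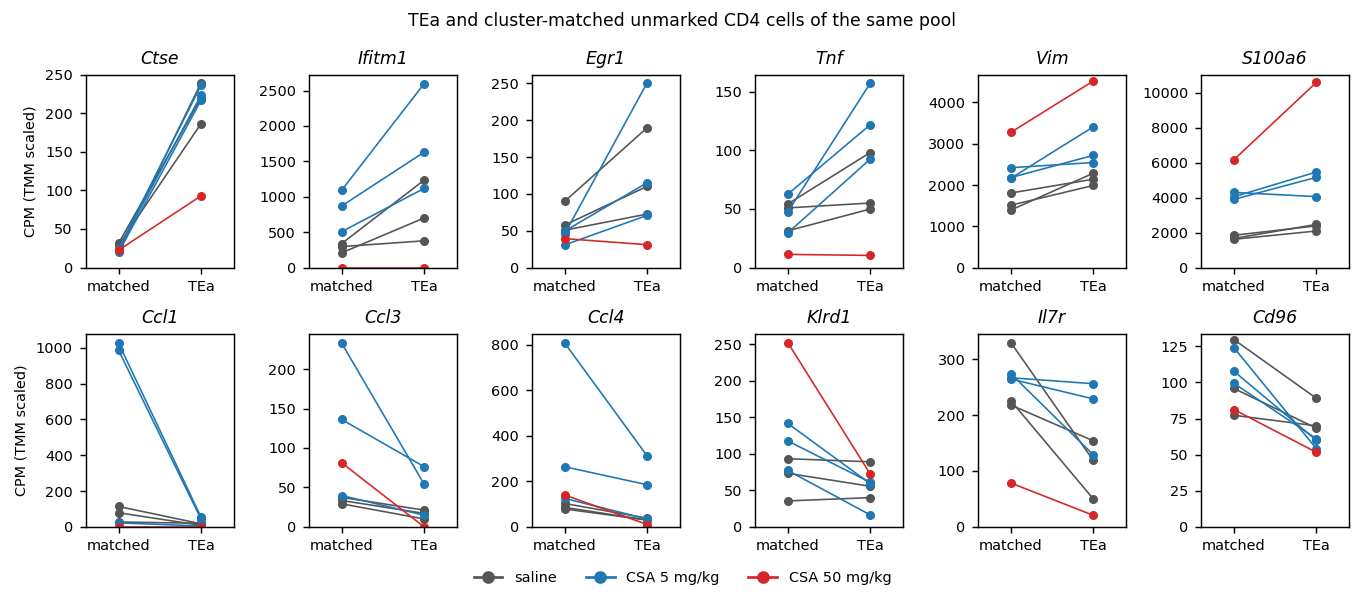
Levels of 12 genes in CPM (linear axes that start at 0) in TEa and matched unmarked CD4+ cells, with a line for each of the 7 pools that joins the 2 values of a pool, coloured by treatment. Ctse rises in 7 of 7 lines and Ccl3, Ccl4, Il7r and Cd96 fall in 7 of 7.

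Few members of the gene lists were called between TEa and matched cells, and at the share called over all genes short lists would hold few calls. By sign alone, which was not tested, 3 of 20 S phase, 5 of 17 TCR-induced, 13 of 15 glycolysis and 19 of 21 G2/M genes were above 0. Their median log2 fold changes were -0.16, -0.13, 0.05 and 0.10. For oxidative phosphorylation 47 of 84 and for ribosomal proteins 38 of 80 were above 0. No gene passed among 84 of oxidative phosphorylation, 80 of cytosolic ribosomal proteins, 20 of S phase, 15 of glycolysis, 12 interferon-stimulated, 11 follicular helper, 9 homing receptor and 5 dissociation genes tested, beside 1.18% of all genes tested. Of 17 TCR-induced genes Egr1 was higher and Tnfrsf4 lower, and the other 15 did not pass. Of 26 Th1 and effector genes, S100a6 and Lgals1 were higher and Ccl3 and Ccl4 lower. Of 12 inhibitory receptor genes with Tox, Cd96 was lower, and of 14 naive and central memory genes, Il7r was lower. Of the 4 cytokine genes tested, Tnf was higher and Csf2 and Ccl1 lower, and of 21 G2/M genes Mki67 was higher. Each of these lists thus had at most 2 called members in a direction.

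Over the 71 unmarked cells with the TEa label, levels could be set beside those of TEa cells without using the mark. Of the 24 genes called higher in TEa cells, 19 were higher in the 71 cells than in 355 other unmarked cells without high CD45.1 drawn to match the 71 by pool and cluster, as were 46.9% of all genes tested, and of the 25 called lower, 17 were lower, as were 53.1% of all. Median log2 ratios were 0.35, -0.16 and, over all genes, -0.02. Among the leading genes, Ctse (3.16), Ifitm1 (2.35), Ccl1 (-4.26) and Ccl4 (-0.41) kept their direction in the 71 cells. Tnf (-0.81), Egr1 (-0.15) and Ccl3 (0.40) went the other way. UMIs in the 71 cells were 7 for Ccl1, 13 for Tnf, 29 for Egr1 and 33 for Ccl3. The ratios of single genes were not tested. A UMI of Ifitm1 was found in 49.3% of the 71 cells, 43.9% of TEa cells and 36.0% of the 1393 cells matched to TEa cells. For Ccl1 these shares were 8.45, 5.00 and 8.47%.

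Deposited scores per cell, and depth, were compared by exact two-sided sign-flip tests over 7 pools, adjusted over 7 measures, with a smallest possible p of 0.0156. Median UMIs per cell were higher in TEa than in matched cells in 7 of 7 pools, by 811 on average (exact adjusted p = 0.0547), or by 281 without CSA 50 mg/kg pool 1. TEa cells have a captured pair of chains by definition, and against unmarked cells with both chains only the difference was 496 UMIs, higher in 4 of 7 pools (exact adjusted p = 0.766). The mitochondrial share was 1.81% against 1.64%, also higher in 7 of 7 pools (difference 0.175 points, exact adjusted p = 0.0547). The exhaustion score was higher by 0.00166 on average and in 6 of 7 pools (exact adjusted p = 0.109). Against unmarked cells with both chains only, that difference was 0.000377, higher in 5 of 7 pools (exact adjusted p = 0.766). The stem-like score was lower by 0.011 on average, with 3 of 7 pools higher (exact adjusted p = 0.547). The glycolysis score (exact adjusted p = 0.35) and pseudotime (0.438) did not pass either.

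With CSA 5 mg/kg, TEa cells held more RNA of 77 of 80 ribosomal protein, 47 of 79 respiratory chain and 10 of 24 effector genes tested than with saline. Of 5281 genes tested, 503 passed (9.52%), 350 of them higher (6.63%) and 153 lower (2.9%). Scaled by library size instead of TMM, the calls were 166 higher and 525 lower, and the median of all genes moved from -0.04 to -0.30, whereas DESeq2 gave 195 higher and 34 lower. Directions below therefore hold relative to the median gene. All matched cells of the same pools were compared in the same way, and 2314 of 8932 genes passed there (25.9%). Matched sums hold up to 5 cells per TEa cell, so the shares of genes called do not compare the size of the change. Both comparisons share their captures and, through the matching, their cluster makeup. TEa cells of the 2 groups were not matched for cluster here. The follicular helper cluster C4 held 26.8% of them with saline and 2.31% with CSA 5 mg/kg, and the part of cluster makeup in these changes was not tested.

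Ribosomal protein genes stood out by count. Of 80 tested in TEa cells, 77 were higher with CSA 5 mg/kg and 0 lower, with a median log2 fold change of 0.75, and under library size scaling 61 were higher and 0 lower, with a median of 0.48. Rps28, a protein of the small ribosomal subunit, held 572, 615 and 694 CPM with saline and 2126, 1966 and 2118 with CSA 5 mg/kg, with no overlap (log2 fold change 1.71 ± 0.13, edgeR adjusted p = 3.13e-16). Rpl38 (1.64), Rps29 (1.58) and Rps21 (1.57) followed. Of 79 oxidative phosphorylation genes, 47 were higher and 0 lower (median 0.66), among them Atp5k, an ATP synthase subunit, at 41.6, 66.3 and 79.1 CPM with saline and 191, 218 and 236 with CSA 5 mg/kg (1.69, edgeR adjusted p = 1.9e-06). Matched cells showed the same lists higher, with 80 of 80 ribosomal (median 0.80) and 73 of 86 respiratory genes.

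Some effector genes were higher with CSA 5 mg/kg. Of 24 Th1 and effector genes tested, 10 were higher and 0 lower, though under library size scaling 5 were higher and 2 lower. Ifng, the cytokine interferon gamma, held 31.2, 61.9 and 22.0 CPM with saline and 75.4, 72.6 and 212 with CSA 5 mg/kg (log2 fold change 1.69, edgeR adjusted p = 9.37e-04). It did not pass without CSA 5 mg/kg pool 3, where the value was 0.88. Gzma, the serine protease granzyme A, held 323, 287 and 250 CPM with saline and 548, 469 and 664 with CSA 5 mg/kg, with no overlap (1.02 ± 0.17, edgeR adjusted p = 1.33e-05). Ccl4 held 31.2, 31.0 and 39.5 with saline and 35.2, 190 and 315 with CSA 5 mg/kg, so its rise rested on pools 2 and 3 (2.45 ± 0.41, edgeR adjusted p = 6.73e-06). Gzmb (0.51), Ly6c2 (0.84), Id2 (0.74), S100a4 (1.14) and S100a6 (1.05) were also higher.

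Among TCR-induced genes, Il2ra (1.23), the high-affinity interleukin-2 receptor chain, and Nfkbid (1.51) were higher and Nfatc1 (-0.68) lower of 17 tested, while library size scaling gave 0 higher and 2 lower. Il2ra held 20.8, 57.5 and 30.7 CPM with saline and 60.3, 89.4 and 123 with CSA 5 mg/kg. Of 12 inhibitory receptor genes Btla (-1.31) and Tox (-0.93) were lower, and of 12 naive and central memory genes Tcf7 (-0.77) and Ccr7 (-1.07) were lower. Tcf7, a transcription factor of self-renewing T cells, held 499, 287 and 250 CPM with saline and 261, 162 and 147 with CSA 5 mg/kg, and the groups overlapped (edgeR adjusted p = 0.0149). The follicular helper list had Cd40lg higher (0.79) and Slamf6 lower (-0.85) of 10 tested. No gene of S phase, G2/M or glycolysis passed of 19, 21 and 14 tested.

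Genes of homing and of the interferon response were called in small numbers at 5 mg/kg. Itga4, the alpha 4 integrin chain, held 687, 990 and 1076 CPM with saline and 543, 413 and 253 with CSA 5 mg/kg, with no overlap (log2 fold change -1.26 ± 0.17, edgeR adjusted p = 9.03e-08), and Itgb1 was also lower (-0.46), 2 of 9 homing genes. Ifi27l2a, an interferon-stimulated gene, held 1363, 752 and 883 CPM and then 2644, 3133 and 2768 (1.57, edgeR adjusted p = 1.56e-14), with no overlap, and was the 1 gene called of 11 on its list tested. The greatest falls by the rule were Trp53inp1 (-1.75), Med13 (-1.70), Jmjd1c (-1.60), Rnf213 (-1.59), Slfn5 (-1.57), Secisbp2l (-1.52), Elk4 (-1.48), Samd9l (-1.47), the linker histone Hist1h1a (-1.42) and Usp9x (-1.38). Slfn5 held 198, 159 and 167 CPM with saline and 55.3, 67.0 and 51.3 with CSA 5 mg/kg.

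Some of these falls lost their call when 1 pool was left out. Med13 did so without saline pool 1 (-1.33) or CSA 5 mg/kg pool 3 (-1.34), Jmjd1c (-1.21) and Secisbp2l (-1.26) without saline pool 3, and Samd9l and Usp9x (-1.32 each) without saline pool 2. The whole count of calls ranged from 334 to 522 when single pools were left out, with 334 without saline pool 2. Rises named by rank that are not in the lists above were Ppil3 (2.15) and the noncoding Gm26825 (1.82).

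With CSA 50 mg/kg, TEa cells were 27 in all, and all 9 pools were used because only 1 of these pools held 10 cells. Of 3902 genes tested, 588 passed (15.1%), 276 higher (7.07%) and 312 lower (8%). Library size scaling gave 146 higher and 629 lower with a median of all genes of -0.32 in place of -0.04, and DESeq2 gave 210 higher and 137 lower. Of the genes tested, 4 of 10 inhibitory receptor, 6 of 9 follicular helper and 4 of 15 TCR-induced genes were lower in these cells, and Ly6c2, S100a4, Lmna and Cd7 higher. In matched cells 2461 of 8172 genes passed (30.1%).

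Ly6c2, a surface protein of effector and memory T cells, held 88.7, 109 and 184 CPM with saline, 332, 133 and 213 with CSA 5 mg/kg and 888, 640 and 1245 with CSA 50 mg/kg, where all 3 pools were above all others (log2 fold change against saline 2.79 ± 0.29, edgeR adjusted p = 9.27e-08). S100a4 held 155, 184 and 184, then 367, 395 and 349, then 952, 788 and 801 CPM, with no overlap between any groups (2.27 ± 0.21, edgeR adjusted p = 3e-08). Lmna, which encodes lamin A and C, held 11.1, 33.0 and 36.9, then 9.92, 0 and 3.38, then 180, 148 and 188 (2.49 ± 0.47, edgeR adjusted p = 4.38e-04). The lower dose thus had the lowest Lmna values and the higher dose the highest, but these rested on few UMIs. TEa cells held 16 Lmna UMIs with saline, 3 with CSA 5 mg/kg and 34 with CSA 50 mg/kg. Cd7, a costimulatory receptor, held 55.4, 94.4 and 73.8, then 84.3, 27.8 and 74.4, then 444, 172 and 290 (2.07 ± 0.35, edgeR adjusted p = 8.66e-05), and Ctla2a, a protease inhibitor, 11.1, 14.2 and 41.5 with saline and 127, 271 and 324 with CSA 50 mg/kg (3.11, edgeR adjusted p = 4.41e-05).

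Pdcd1, which encodes the inhibitory receptor PD-1, held 377, 250 and 198 CPM with saline, 233, 150 and 173 with CSA 5 mg/kg and 0, 24.6 and 0 with CSA 50 mg/kg. The last group rested on 1 UMI against 130 with saline, a level 56.3-fold lower by share of all UMIs with a 95% counting interval of 9.93 to 2242 (edgeR adjusted p = 4.14e-06). Tigit held 233, 222 and 244, then 347, 283 and 250, then 31.7, 49.2 and 51.1 CPM (log2 fold change -2.47 ± 0.41, edgeR adjusted p = 6.77e-05), and so was low only at the higher dose. With Btla (-2.39) and Tox (-2.96), 4 of 10 inhibitory receptor genes were lower and 0 higher, with a list median of -1.54, and 5 were lower and 0 higher under library size scaling.

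Follicular helper genes were lower in 6 of 9 tested and higher in 0, with a median of -2.00, or -1.80 with genes at 0 set to their bound. Icos, a costimulatory receptor of helper cells, held 743, 566 and 535 CPM with saline, 422, 383 and 501 with CSA 5 mg/kg and 31.7, 222 and 273 with CSA 50 mg/kg (log2 fold change -2.00 ± 0.35, edgeR adjusted p = 1.34e-04). Cxcr5, the receptor that guides cells to B cell follicles, had no UMI with CSA 50 mg/kg, and was at least 3.49-fold lower (3 counts over the group as the floor). Sostdc1 was at least 10.6-fold lower by the same floor, and Sh2d1a (-1.11), Tnfsf8 (-3.06) and Izumo1r (-3.95) were also lower. No TEa cell of this group was in the follicular helper cluster, so cluster makeup moved with these genes, and its part in them was not tested in this comparison.

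TCR-induced genes were lower in 4 of 15 tested at 50 mg/kg, namely Tnfrsf4 (-1.65), Nfatc1 (-1.37), Batf (-1.46) and Bhlhe40 (-2.67), and Dusp2 (1.11), a phosphatase of MAP kinases, was higher. Batf, a transcription factor of effector differentiation, held 255, 264 and 291 CPM with saline, 337, 345 and 305 with CSA 5 mg/kg and 95.2, 148 and 68.2 with CSA 50 mg/kg (edgeR adjusted p = 0.00161). Ifitm1 held 776, 1364 and 411, then 1642, 1139 and 2592, then 0, 0 and 0 CPM, at least 55.8-fold lower than with saline (edgeR adjusted p = 1.22e-06). Its relative Ifitm2 was at least 10.6-fold lower, and Ifitm3 rested on 2 UMIs against 147, a ratio of 31.8-fold lower (8.66 to 265).

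Effector genes split at the higher dose, with 5 of 20 higher and 3 lower. Gzma held 344, 307 and 263 CPM with saline, 541, 467 and 656 with CSA 5 mg/kg and 42.3, 24.6 and 0 with CSA 50 mg/kg, so that it was highest at the lower dose and lowest at the higher (log2 fold change -3.49 ± 0.47 against saline, edgeR adjusted p = 6.67e-06). Il18r1, an interleukin-18 receptor chain, rested on 2 UMIs against 131, a ratio of 28.4-fold lower (7.70 to 237). Cd44 was also lower (-1.29), and Ccl5 (1.56), S100a6 (1.62) and Anxa2 (0.72) higher. Ccl5, a chemokine of cytotoxic and memory cells, held 632, 760 and 632, then 308, 1095 and 308, then 2538, 3003 and 529, so that the groups overlapped.

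Central memory genes moved both ways, with 2 of 11 higher and 2 lower, or 0 higher and 4 lower under library size scaling. Ccr7, a chemokine receptor that guides T cells into lymph nodes, held 66.5, 70.8 and 129 CPM with saline, 54.6, 27.8 and 40.6 with CSA 5 mg/kg and 74.0, 222 and 443 with CSA 50 mg/kg (log2 fold change 1.25, edgeR adjusted p = 0.0458). Klf2 (0.56) was higher, and Tcf7 (-1.26) and Il7r (-2.30) lower. Tcf7 held 31.7, 123 and 324 CPM in the 3 CSA 50 mg/kg pools, the last within the range with saline.

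Of the remaining lists, 76 of 80 ribosomal genes (median 0.87) and 29 of 78 respiratory genes (0.67) were higher at 50 mg/kg and 0 lower, and 0 were lower under library size scaling. Homing genes were lower in 3 of 7, with Itga4 at 296, 73.8 and 205 CPM (-2.19 against saline, edgeR adjusted p = 8.71e-06), Itgb1 (-1.13) and Itgal (-1.02). Of 20 G2/M genes tested, 2 were higher and 1 lower, with a median of 0.15, beside 7.07% higher and 8% lower over all genes. Mki67 held 582, 73.8 and 239 CPM against 820, 1057 and 835 with saline (-1.37, edgeR adjusted p = 0.0023), while Ccnb2 (1.06) and Birc5 (1.11), which act in mitosis, were higher. Itm2a (2.80) held 63.4, 640 and 51.1 CPM, and without pool 2 it lost its call at 1.19. Mt1 (2.84) lost its call without CSA 50 mg/kg pool 1 (1.76) or saline pool 3 (2.08). Gm26825 (1.81) lost it without saline pool 2 (1.82) or 3 (1.62) or CSA 50 mg/kg pool 2 (1.67) or 3 (1.81), and Bbip1 (1.62) without saline pool 2 (1.58) or CSA 50 mg/kg pool 1 (1.67) or 3 (1.57). Chd3 and Tnfrsf25 (at least 5.98-fold and 5.85-fold lower), Hist1h3f (at least 7.72-fold) and Ikzf2 (at least 6.72-fold), which were at 0 with CSA 50 mg/kg, completed the falls named by rank. The count of calls ranged from 398 to 584 when single pools were left out.

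**Figure D5:**
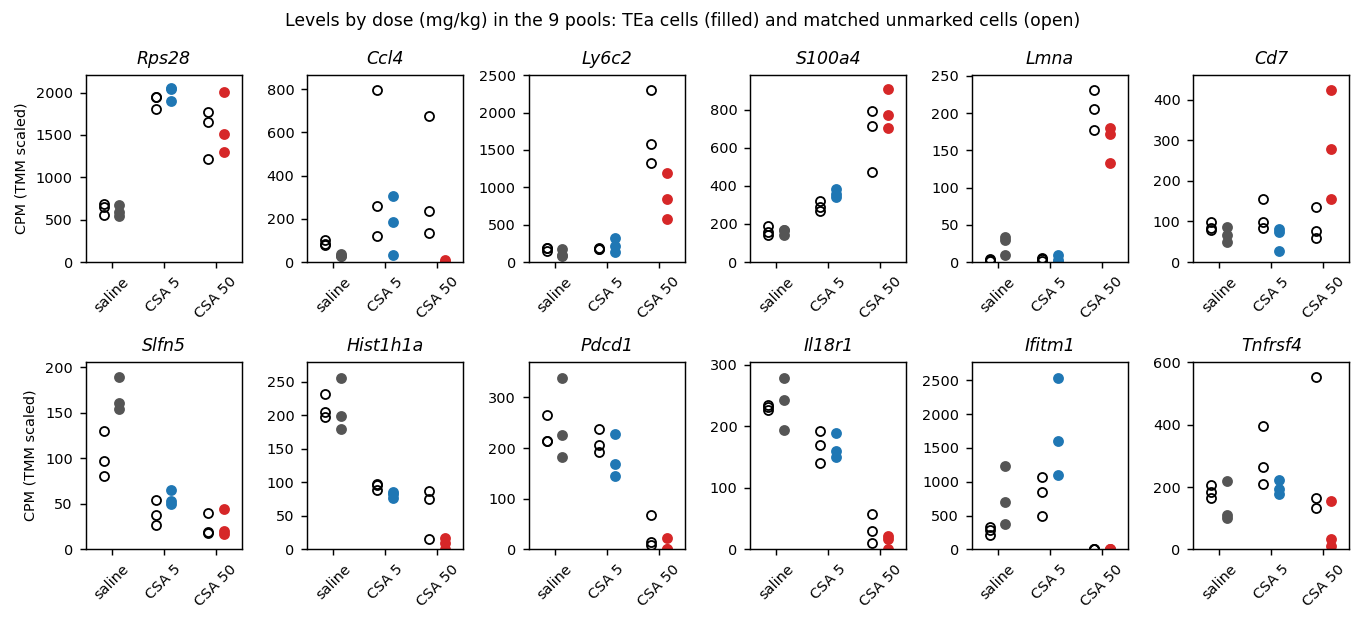
Levels of 12 genes in CPM (linear axes that start at 0) in each of the 9 pools by treatment, for TEa (filled) and matched unmarked (open) CD4+ cells. Rps28 lies higher with both doses than with saline, Pdcd1 is lowest with CSA 50 mg/kg, where 2 of 3 TEa pools are at 0, and Ly6c2 and S100a4 of TEa cells are highest there.

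Whether the dose changes differed between TEa and matched cells was tested by the interaction of mark and treatment. At 5 mg/kg, 0 of 7534 genes passed by edgeR (0%), with 368 at an unadjusted p under 0.05, and 0 passed by DESeq2. With sums of so few TEa cells, a count of 0 does not show that the changes were the same. At 50 mg/kg, 16 of 6044 passed (0.265%), 4 with a more positive change in TEa cells (0.0662%) and 12 with a more negative one (0.199%). Library size scaling gave 6 and 10, and DESeq2 gave 2 and 1. These rest on 27 TEa cells.

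Cd7, Lmna and Ccl4 were among the 16 genes. Cd7 held 49.8, 85.4 and 67.7 CPM with saline and 424, 154 and 279 with CSA 50 mg/kg in TEa cells, and 85.0, 78.4 and 99.3, then 136, 60.2 and 75.6 in matched cells (difference of log2 changes 1.96, edgeR adjusted p = 0.00217, called in 18 of 20 alternatives). Lmna rose in both, but from 9.97, 29.9 and 33.9 CPM in TEa cells and from 2.07, 3.60 and 1.91 in matched cells, to 172, 132 and 180 and to 177, 206 and 230. The ranges of the 2 kinds of cells were apart with saline and overlapped at the higher dose (difference of log2 changes -3.55, edgeR adjusted p = 0.00604, called in 17 of 20). It was not called without saline pool 2 (-3.83) or 3 (-3.08), and its TEa levels rested on 16 UMIs with saline and 34 with CSA 50 mg/kg. Ccl4 held 10.1, 0 and 0 CPM in TEa cells and 136, 677 and 234 in matched cells at 50 mg/kg (difference -4.38 ± 0.98, edgeR adjusted p = 0.0202), but a second draw of matched cells gave -0.77 and it was called in 7 of 20 alternatives. The call was lost without saline pool 2 (-4.33) or 3 (-4.35) or CSA 50 mg/kg pool 2 (-3.32) or 3 (-3.98).

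Plac8 (2.20, called in 17 of 20 alternatives) held 323, 22.0 and 279 CPM in TEa cells with CSA 50 mg/kg and 84.6, 25.1 and 68.4 in matched cells, and lost its call without CSA 50 mg/kg pool 1 (2.10). Klrd1 (-2.41) held 70.7, 0 and 16.4 CPM against 246, 176 and 245, and was called in 8 of 20. Bhlhe40 (-2.03), a transcription factor of cytokine production, held 70.7, 44.1 and 0 against 205, 75.2 and 187, and was called in 11 of 20. Tnfrsf4 (-1.99) was called in 7 of 20. The calls of Klrd1, Bhlhe40 and Tnfrsf4 each depended on 4 single pools. Klrd1 was lost without saline pool 2 (-2.53) or 3 (-2.29) or CSA 50 mg/kg pool 2 (-2.13) or 3 (-2.05). Bhlhe40 was lost without saline pool 1 (-1.96) or 2 (-1.98) or CSA 50 mg/kg pool 1 (-2.93) or 3 (-1.45). Tnfrsf4 was lost without saline pool 3 (-1.45) or CSA 50 mg/kg pool 1 (-1.56), 2 (-2.69) or 3 (-2.05). Leaving out single pools gave between 6 and 19 calls, with 6 without saline pool 2.

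Set side by side, the changes with dose in TEa cells had like signs in matched cells of the same captures. Matched cells share the treatment, the capture and, through the matching, the cluster makeup of TEa cells. Of the 503 genes called at 5 mg/kg in TEa cells, 500 had the same sign in matched cells and 457 were called there in the same direction. Of the 588 called at 50 mg/kg, 579 had the same sign and 508 were called in the same direction. Over all genes tested in matched cells, 25.9% were called in either direction at 5 mg/kg and 30.1% at 50 mg/kg. The share of like signs over all genes was not taken. At 50 mg/kg the inhibitory list had 6 of 13 genes lower and the follicular helper list 7 of 12 lower in matched cells, beside 4 of 10 and 6 of 9 in TEa cells.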

How the data were processed

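Droplet 5' RNA, antibody and TCR libraries were made from sorted splenic CD4+ and CD8+ cells, 1 capture per group. The submitters' processing notes name Cell Ranger, Seurat 3.0.0 and the mm10 build. For each cell and gene, the deposited table held counts of UMIs without normalization, and the cell tables held counts of antibody UMIs. The score columns were module scores made by the authors, and their cell table also gave pool, cluster, TEa mark, clonotype and the fraction of mitochondrial UMIs, which the authors computed. UMI sums equalled the authors' number in all 10371 CD4+ cells. The tables held 0 columns of other series. Cluster names are the authors'.

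Members, gene lists, markers and tests were chosen with earlier results of these data known. TEa cells were those with the deposited mark. Up to 5 unmarked cells per TEa cell were drawn with a fixed seed from the same pool and cluster (68 strata, 1 with fewer). Counts were summed per pool and mark, filtered with filterByExpr, and tested with edgeR 4.0.16 (limma 3.58.1, R 4.3.3), with pool as a block for TEa against matched cells and for interactions, and no block between groups, which share no mice. Pools with at least 10 TEa cells were used, or all 9 for CSA 50 mg/kg. Pools, not cells, are the replicates (3 per group). Shares and medians were compared by exact tests (Python 3.11.15, SciPy 1.17.1, pandas 2.3.3, NumPy 2.4.6), and share intervals are exact Clopper-Pearson 95% intervals that cover counting error only. Positions are from GENCODE M21 and were found for 6699 of 6750 genes.

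Named genes were the 10 largest rises and 10 largest falls among called genes with a mean of at least 50 CPM, without TCR and immunoglobulin segments, and list members of at least 50 CPM. A few genes are not reported here and were left out of the lists. Doublets were treated no further than the deposited filter, and an alternative left out 10 TEa and 414 unmarked cells whose second hashtag reached 0.5 of the strongest. Alternatives were DESeq2 1.42.0, library size scaling, no low-count filter, cells of at least 2000 UMIs, no matching, a second draw, weights in place of matching, no replicate block, cells with a clonotype, single treatments and leaving out each pool. Leaving out cells of 2 strong hashtags, unmarked cells of high CD45.1 or with 1 chain, only CSA 50 mg/kg pools, and only pools of at least 10 cells at 50 mg/kg were added after seeing the data. Scripts were tested on simulated data.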

Additional observations from a re-analysis of the deposited data

Results flagged for a closer look

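Genes whose change with CSA 50 mg/kg differed between TEa and matched unmarked cells by the interaction test were the following, with the difference of log2 changes (TEa minus matched), all on 27 TEa cells. The more negative changes in TEa cells were in Ccl4 (-4.38), AA467197 (-3.63), Lmna (-3.55), Cd74 (-2.59), Klrd1 (-2.41), Bhlhe40 (-2.03), Tnfrsf4 (-1.99), Hist1h1d (-1.90), Rrm2 (-1.48), Cd82 (-1.33), Hist1h1b (-1.07) and Lgals1 (-0.62). The more positive changes were in Cd7 (1.96), Plac8 (2.20), Mt1 (3.04) and Cxcl10 (4.61). Of those with a count of alternatives, Cd74 kept its call in 5 of 20, Cd82 in 12, Hist1h1d in 10, Rrm2 in 14 and AA467197 in 13, and leaving out single pools ended each of these 5 calls. Among unmarked CD4+ cells, 61 had no clonotype but held UMIs of both TEa V segments. Their CD45.1 antibody counts were at or above the 5th percentile of TEa cells. They are part of the 71 cells set apart above, which only an alternative of the TEa share counted as TEa. Groups of 3 pools are too small for a test of single pools that stand apart.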

How the results depend on the processing

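For TEa against matched cells, 80 genes were called (49 without TCR segments), with 50 (23) by DESeq2, 135 (81) without the low-count filter, 268 (204) without matching, 36 (12) with saline pools only, 31 without segments with CSA 5 mg/kg pools only, 34 (20) with CSA 50 mg/kg pools only, and 69 to 86 (39 to 56) when single pools were left out. Without the replicate block 65 (37) were called, Ccl4, Klrd1, AA467197, Slfn5 and Tnfrsf4 losing their calls, and at 50 mg/kg the interaction then gave 1 in place of 16. With CSA 50 mg/kg pools only, Egr1 (-0.72), AA467197 (-2.28) and Vim (-0.017) changed sign. DESeq2 called 229 genes at 5 mg/kg and 347 at 50 mg/kg. The ranges without single pools were 334 to 522 and 398 to 584. The interaction at 5 mg/kg gave 0 calls, with 3 for cells of at least 2000 UMIs, 2 without cells of 2 strong hashtags, 2 with a second draw, 4 with weights, 5 with unmarked cells of both chains and 0 to 3 without single pools. At 50 mg/kg it gave 3 by DESeq2, 9 with only pools of at least 10 cells, 10 for cells of at least 2000 UMIs, 9 without cells of 2 strong hashtags, 7 with a second draw, 8 with unmarked cells of both chains and 6 to 19 without single pools. Without single pools, the cycling difference ranged from 7.86 to 12.4 points, that of C0, C4 and C6 from -10.2 to -6.97, and that of C1 and C3 from -2.87 to 4.50, with 3.95 in saline and CSA 5 mg/kg pools only. Without matching, TEa cells were higher by 0.00389 in exhaustion score, 1181 UMIs and 246 genes. The cause of these shifts was not tested, except that fewer pools, genes or cells enter by construction where they are left out. Of the single genes, 1061 values kept their side of the threshold, 206 no longer passed and 3 changed sign. No paired analysis was possible between doses because the groups share no mice. TEa shares kept their direction in every alternative, but 3 pools against 3 cannot reach 0.05. With 27 TEa cells at 50 mg/kg, genes under about 50 CPM there rest on few UMIs.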
